A study of Mus musculus with 20 samples.

Results

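The mitochondrial ribosomal protein genes are nuclear genes that encode the protein subunits of the mitochondrial ribosome, and they were taken as every gene whose symbol is *Mrpl* or *Mrps* followed directly by a digit. This gave 78 genes, 49 *Mrpl* and 29 *Mrps*, of the 21963 genes counted. All 78 were among the 11707 genes that passed the filter on low counts and were tested. By their place in the ribosome 51 of them encode large subunit proteins, since the products of *Mrps18a* and *Mrps30* sit there, and 26 encode small subunit proteins. The product of *Mrps36* is a subunit of the 2-oxoglutarate dehydrogenase complex and not of the ribosome, so *Mrps36* was kept as a member by its name and counted apart.

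The mitochondrial ribosome translates the few mRNAs that the mitochondrial genome encodes, nearly all of them for core subunits of the respiratory chain and ATP synthase. Its rRNAs are transcribed from mitochondrial DNA, whereas its proteins are made in the cytosol and imported. Part of these proteins have counterparts in the bacterial ribosome and the others are found only in mitochondria, and in macrophages they supply the translation on which respiration depends.

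Macrophages were grown from mouse bone marrow and their RNA was sequenced to ask what Ca2+ entering mitochondria does in the response to zymosan, particles of yeast cell wall that are taken up by phagocytosis. Mice were aged 15 to 25 weeks and were either WT or *Mcu*-/-, lacking *Mcu*, which encodes the pore of the mitochondrial Ca2+ uniporter. In the *Mcu*-/- mice a floxed *Mcu* is removed by Cre made from *Cx3cr1*, so deletion is limited to cells that have used that promoter. Zymosan was given for 3 h at 2 particles per cell, and BAPTA-AM, a chelator that binds Ca2+ inside cells, was used at 10 µM. The 5 groups were WT untreated (n = 4), WT with zymosan (n = 5), WT with zymosan after loading with BAPTA-AM (n = 4), *Mcu*-/- untreated (n = 4) and *Mcu*-/- with zymosan (n = 3, in libraries numbered 3, 4 and 5).

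Levels are given as counts per M (mega) of library total (CPM) after scaling of library totals by the trimmed mean of M-values (TMM), and per kilobase of exon (RPKM) where genes are compared with one another. Total counts were 19.1, 19.3, 19.1 and 14.4 M in the WT untreated libraries and 20.3, 22.2, 22.4, 21.05 and 20.5 M in WT with zymosan. They were 20.5, 20.1, 17.4 and 21.7 M in the BAPTA-AM loaded macrophages, 22.1, 22.8, 22.3 and 21.9 M in *Mcu*-/- untreated and 20.1, 21.1 and 23.95 M in *Mcu*-/- with zymosan. A single member ranged from 2 counts, for *Mrpl53* in its lowest library, to 3046 counts, and the lowest count of any other member was 84. A gene was called higher or lower when its edgeR p, adjusted over all tested genes by the method of Benjamini and Hochberg, was under 0.05.

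The deletion was checked first. *Mcu* stood at 8.36, 6.49, 7.66 and 6.84 CPM in WT untreated, 7.23, 6.93, 6.38, 6.57 and 6.10 CPM in WT with zymosan and 9.55, 6.99, 7.43 and 7.79 CPM in BAPTA-AM loaded macrophages. It stood at 2.85, 3.77, 2.63 and 4.05 CPM in *Mcu*-/- untreated and 3.65, 3.62 and 3.98 CPM in *Mcu*-/- with zymosan. Each of the 7 *Mcu*-/- libraries lay below each of the 13 WT libraries, and none of the 7 was at 0. Between *Mcu*-/- and WT *Mcu* had a log2 fold change estimated at −1.14 (standard error 0.13, edgeR adjusted p = 0.000163) without zymosan and a log2 fold change estimated at −0.82 (standard error 0.14, edgeR adjusted p = 9.61e-05) with it. When only the untreated groups were fitted its log2 fold change was −1.15 with an edgeR adjusted p = 0.0979, and with the replicate number as a block it was −1.16 with an edgeR adjusted p = 0.824.

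The library of *Mcu*-/- untreated replicate 4 stood apart from the other 3 of its group. A chi-square of counting error per gene was 212 to 220 in its 3 pairs with them, against 1.60 to 6.33 in the other 28 pairs of replicates, and per member it was 13.4 to 16.1 against 1.14 to 3.10. Of the 42 members called between *Mcu*-/- and WT with zymosan, 40 differed from the WT untreated mean in the direction of that call in this untreated library, against 23, 24 and 25 in replicates 1, 2 and 3. That count was made over members only, with no share over all called genes beside it. The chi-square per gene shows the library apart over all genes but gives no direction, so whether the count is particular to the members was not tested. The fit estimated a biological coefficient of variation of 12.4% with this library and 3.56% without it. Since the spread is shared by all comparisons, the counts of called members in each comparison are given with and without it.

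Sums of marker genes of several cell types differed in the *Mcu*-/- zymosan group and in that library, in part through single genes. All 8 macrophage markers were tested, *Lyz2* being the most abundant, and their summed level was 13357 to 16393 CPM in the other 16 libraries, 8556 CPM in *Mcu*-/- untreated replicate 4 and 10408 to 10767 CPM in *Mcu*-/- with zymosan. They did not move together, since between *Mcu*-/- and WT after zymosan *Lyz2*, *Adgre1* and *Itgam* were called lower at −1.34, −0.79 and −1.66 (log2), which carried the lower sum. In the same comparison *Cd68*, *Fcgr1*, *Csf1r* and *Cd14* were called higher at 1.91, 1.44, 0.94 and 0.34, and *Mertk* was not called at 0.33. Fibroblast markers, 3 of 5 tested and led by *Col1a2*, summed to 1.10 to 6.63, 28.3 and 44.0 to 52.3 CPM in the same order. B cell markers, 5 of 5 tested and led by *Cd79b*, summed to 30.8 to 55.8, 18.8 and 13.0 to 13.6 CPM, and dendritic cell markers, 3 of 5 tested and led by *Itgax*, to 2.42 to 17.2, 9.09 and 34.1 to 37.1 CPM. Between the genotypes after zymosan *Itgax* was called higher at 2.02, while *Zbtb46* and *Xcr1* were not called, each at 0.21, and of the B cell markers *Cd79b* was called lower at −1.47 and the other 4 were not called. Neutrophil markers, 3 of 8 tested and led by *S100a9*, summed to 2.40 to 5.71, 0.159 and 0.547 to 0.765 CPM, and T cell markers, 2 of 7 tested, led by *Cd4* and with *Cd8a* at 0 in every library, to 1.18 to 3.47, 3.61 and 3.90 to 4.33 CPM. Mast cell and basophil markers, 1 of 4 tested and led by *Gata2*, summed to 0.110 to 0.6003, 0.159 and 0.589 to 1.19 CPM. Natural killer cell markers, with 0 of 3 past the filter and *Ncr1* at 0 in every library, reached at most 0.509 CPM, and erythroid markers, with 0 of 4 past the filter and led by *Hba-a1*, at most 0.657 CPM. Of the T cell markers *Cd4* was called higher at 1.58 and *Lck* lower at −1.06 between the genotypes after zymosan. In the same comparison every tested fibroblast marker was called higher, *Col1a1*, *Col1a2* and *Col3a1* at 3.41, 3.40 and 2.03. Every tested neutrophil marker was called lower, *S100a8*, *S100a9* and *Ngp* at −2.74, −3.40 and −3.68, and *Gata2* was called higher at 1.64. Sums of fibroblast, B cell and T cell markers ran in one direction from the other 16 libraries through replicate 4 to the stimulated group. Their part in the results was not tested, and where the markers of a type were lower, fewer cells of a type and less RNA per cell cannot be told apart.

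In untreated WT macrophages the members were expressed at a modest level that differed widely among them. Per kilobase of exon the median member stood at 9.82 RPKM with quartiles of 5.20 and 16.7 RPKM, against a median of 249 RPKM for the cytosolic ribosomal protein genes. The highest were *Mrps21* at 38.8 RPKM, *Mrpl52* at 30.7 RPKM and *Mrpl54* at 30.4 RPKM, of which *Mrps21* encodes the counterpart of bacterial S21 and the others encode proteins of the large subunit that bacteria lack. The lowest were *Mrpl53* at 0.488 RPKM, *Mrps35* at 1.35 RPKM and *Mrps25* at 2.23 RPKM, and the ratio of the highest to the lowest was 79.5. Exon length was the union of the exons of all annotated transcripts of a gene, used in these macrophages or not. The order and the width of these levels therefore depend in part on the annotation. Of the exon bases of *Mrpl53*, 88.0% are shared with *Gm42688* on the same strand, and of those of *Mrps25*, 69.8% with *Nr2c2* on the opposite strand, so the reads counted for these members depend on how shared bases were assigned. In all, 33 members have exons that overlap another gene, 28 of them a gene on the opposite strand and 8 a gene on the same strand, and 45 have none. Whether counting used the strand is not given in the sources used here, so such reads cannot be told apart.

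Taken as a sum, the members made up a small and even share of the RNA within each group. Their summed level was 1975 ± 52.1 CPM (SD, n = 4) in WT untreated, 1854 ± 29.4 CPM (SD, n = 5) in WT with zymosan and 1902 ± 12.1 CPM (SD, n = 4) in BAPTA-AM loaded macrophages. It was 1980.6 ± 40.6 CPM (SD, n = 4) in *Mcu*-/- untreated and 1808 ± 35.0 CPM (SD, n = 3) in *Mcu*-/- with zymosan. The large subunit members made up 1389 ± 39.9 CPM (SD, n = 4) of the WT untreated sum and 1312 ± 26.5 CPM (SD, n = 5) of the sum with zymosan, and the small subunit members 574 ± 12.8 CPM and 529 ± 3.02 CPM. As a share of all counts, before any scaling, the members held 0.242% in WT untreated and 0.162% in WT with zymosan, 0.173% in BAPTA-AM loaded macrophages, 0.240% in *Mcu*-/- untreated and 0.152% in *Mcu*-/- with zymosan. The TMM factors that separate the share from the sum had a mean of 1.23 in WT untreated, 0.872 in WT with zymosan, 0.910 in BAPTA-AM loaded macrophages, 1.21 in *Mcu*-/- untreated and 0.842 in *Mcu*-/- with zymosan.

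The first comparison asks what 3 h of zymosan does to these genes in WT macrophages. Most members that changed were lower, by small steps, and a few stood out: *Mrpl39* rose by a log2 fold change of 1.05 while *Mrpl49*, *Mrps35* and *Mrpl44* had log2 fold changes of −1.04, −0.95 and −0.94. Of the 78 members, 9 were called higher and 36 lower, where 32.4% of all tested genes were called higher and 36.8% lower. The median log2 fold change was −0.15 over the members and −0.04 over all genes tested. The log2 fold changes ran from −1.04 to 1.05. Without *Mcu*-/- untreated replicate 4, 13 were called higher and 39 lower, beside 37.2% and 41.3% of all genes. The WT untreated and WT zymosan libraries did not overlap for 34 members, 33 of them called, whereas they did not overlap for 69.5% of all tested genes. The split leaned to the lower side under each scaling, though unequally: with relative log expression it was 14 higher and 31 lower, by DESeq2 14 and 29, with the upper quartile 2 higher and 61 lower (median −0.39) and with library totals alone 1 higher and 74 lower (median −0.64). Of all tested genes 34.5% were called higher and 34.8% lower with relative log expression, 34.01% and 34.7% by DESeq2, 21.5% and 52.0% with the upper quartile and 15.7% and 68.5% with library totals. The last 2 scalings moved the median of all genes by −0.24 and −0.49, so directions of small size are relative to the TMM scale, and with the replicate number as a block 15 were higher and 40 lower, beside 37.5% and 41.2% of all genes.

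The proteins of the large subunit that are found only in mitochondria held both the largest rise and the largest fall. *Mrpl39* (ENSMUSG00000022889, chr16:84717576-84735742), whose product carries a region related to threonyl-tRNA synthetase, stood at 21.5, 21.04, 22.9 and 19.7 CPM in WT untreated and 44.9, 45.5, 41.2, 43.8 and 44.7 CPM in WT with zymosan. All 5 stimulated libraries lay far above the 4 untreated ones, with means of 21.3 ± 1.29 (SD, n = 4) and 44.0 ± 1.71 CPM (SD, n = 5) and a log2 fold change estimated at 1.05 (standard error 0.05, edgeR adjusted p = 2.44e-12). *Mrpl52* (ENSMUSG00000010406, chr14:54426909-54429756) stood at 35.4, 32.9, 34.2 and 33.8 CPM untreated and 48.0, 52.3, 48.8, 52.4 and 56.3 CPM with zymosan. Every stimulated library was above every untreated one, with a log2 fold change estimated at 0.60 (standard error 0.07, edgeR adjusted p = 1.96e-07), but with library totals in place of TMM the log2 fold change was 0.11 and the call ended (edgeR adjusted p = 0.19). *Mrpl49* (ENSMUSG00000007338, chr19:6053622-6057785) stood at 22.7, 21.4, 22.1 and 22.7 CPM untreated and 10.5, 11.1, 10.6, 10.8 and 11.0 CPM with zymosan. All stimulated libraries were near a common low level with no overlap, giving a log2 fold change estimated at −1.04 (standard error 0.05, edgeR adjusted p = 2.14e-13). *Mrpl44* (ENSMUSG00000026248, chr1:79776018-79781445), whose product has a ribonuclease III fold, stood at 22.9, 22.1, 19.8 and 21.7 CPM untreated and 11.3, 10.9, 9.44, 13.7 and 11.3 CPM with zymosan. Its groups were also apart, with a log2 fold change estimated at −0.94 (standard error 0.10, edgeR adjusted p = 6.28e-08).

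Of these 21 genes 4 were called higher and 9 lower, with a median log2 fold change of −0.18, where 32.4% of all tested genes were called higher and 36.8% lower. *Mrpl41* and *Mrpl43* fell and stood at −0.60 and −0.60 (edgeR adjusted p = 1.55e-05 and 2.66e-08). *Mrpl54* had a log2 fold change of 0.26 with an edgeR adjusted p = 0.00106, which was 0.02 with upper-quartile scaling and −0.23 with library totals, and *Mrpl37* one of 0.22 (edgeR adjusted p = 0.00416), which turned to −0.02 and −0.27. Neither was called higher under those 2 scalings. Among the 30 large subunit proteins with a bacterial counterpart, 3 were called higher and 15 lower, with a median of −0.18. The largest fall here was *Mrpl18* at −0.58 (standard error 0.06, edgeR adjusted p = 2.34e-08), which encodes the counterpart of bacterial L18, and it was chosen for its place in this list after its values were seen. *Mrpl24*, the counterpart of bacterial L24, had a log2 fold change of 0.19 with an edgeR adjusted p = 0.00851 that turned to −0.05 with upper-quartile scaling and −0.31 with library totals.

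In the small subunit the proteins found only in mitochondria had the lowest median of the 4 role groups, with 8 of 10 lower, 1 higher and a median of −0.40. Beside these, 36.8% of all tested genes were called lower and 32.4% higher. Of the members called lower, *Mrps25* and *Mrps22* were no longer called by DESeq2 (DESeq2 Wald adjusted p = 0.0539 and 0.0846). *Mrps35* (ENSMUSG00000040112, chr6:147042764-147073991), whose product lies in the head of the subunit, stood at 12.5, 10.9, 11.9 and 11.1 CPM untreated and 4.78, 6.36, 6.27, 5.48 and 7.04 CPM with zymosan. The highest stimulated library was well under the lowest untreated one, with a log2 fold change estimated at −0.95 (standard error 0.11, edgeR adjusted p = 2.29e-07). *Mrps26* (ENSMUSG00000037740, chr2:130563742-130568695) stood at 27.4, 27.9, 27.2 and 28.8 CPM untreated and 16.9, 17.1, 17.6, 16.6 and 18.1 CPM with zymosan. It too was lower in each stimulated library, with a log2 fold change estimated at −0.69 (standard error 0.08, edgeR adjusted p = 5.73e-07). The member of this list that was higher was *Mrps18b*, 1 of 3 mammalian relatives of bacterial S18, at 0.22 (edgeR adjusted p = 0.000414), which turned to −0.02 with upper-quartile scaling and −0.28 with library totals. As a relative of a bacterial protein it fits the name of this list only loosely. The same holds for *Mrps18a*, which was listed with the large subunit proteins found only in mitochondria. The 16 small subunit proteins with a bacterial counterpart had the median nearest to 0, with 1 higher, 4 lower and a median of −0.05. *Mrps12*, whose product shapes the decoding centre, was among those that fell, at −0.30 (edgeR adjusted p = 0.00595). *Mrps36*, of the 2-oxoglutarate dehydrogenase complex, was not called and had a log2 fold change of −0.05.

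**Figure D1:**
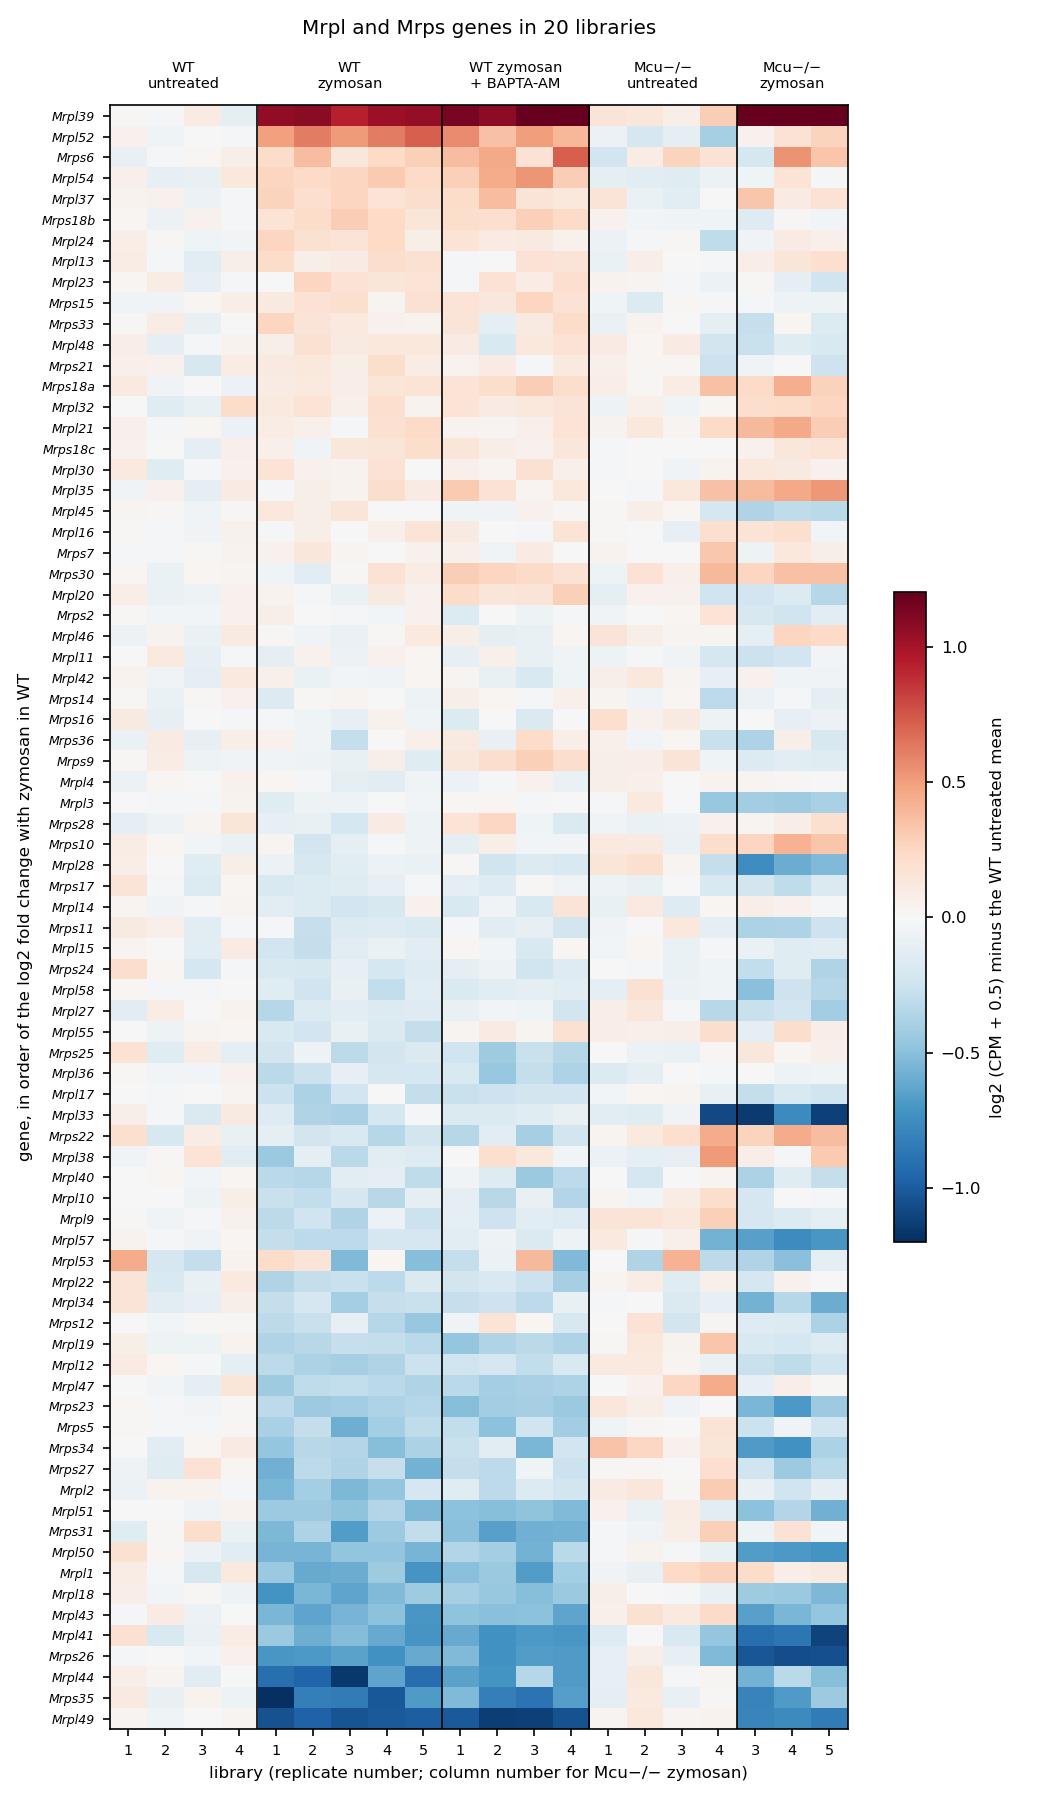
The 78 members (vertical axis, ordered by their log2 fold change with zymosan in WT) in each of the 20 libraries (horizontal axis, by group), coloured by log2 of CPM plus 0.5 minus the mean of the WT untreated libraries on the TMM scale. *Mrpl39* at one end and *Mrpl49* at the other stand out in every stimulated library, *Mrpl52* stands out in those of WT but less in those of *Mcu*-/-, and most members in between moved little, with directions of the small changes that turn under other scalings (2 higher and 61 lower with upper-quartile scaling, 9 higher and 36 lower with TMM).

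Most genes that build and serve the ribosome were called lower, where 36.8% of all tested genes were called lower and 32.4% higher on the TMM scale. Of 26 assembly and rRNA modification genes 17 were called lower and 1 higher (median −0.60), and of 20 mitochondrial aminoacyl-tRNA synthetase genes 15 were called lower (median −0.49). Of 16 tested translation factor genes 11 were called lower and 1 higher (median −0.66), among them *Mtif2*, an initiation factor, at −1.14 (edgeR adjusted p = 3.81e-10), and *Taco1*, which activates translation of the *Cox1* mRNA, at −1.46 (edgeR adjusted p = 9.44e-11). With upper-quartile scaling 22 assembly genes, 18 synthetase genes and 14 translation factor genes were called lower, beside 52.0% of all genes, and with library totals 24, 19 and 16, beside 68.5%. *Tufm*, the elongation factor that brings tRNA to the ribosome, had a log2 fold change of 0.08 and was not called. Of the 5 mitoribosomal proteins that carry other names, *Dap3*, *Ptcd3*, *Chchd1*, *Aurkaip1* and *Gadd45gip1*, 2 were called lower (median −0.09). Of 19 genes for mitochondrial DNA transcription, its upkeep and RNA processing 11 were called lower and 2 higher, with *Polrmt*, the mitochondrial RNA polymerase, at −1.37 (edgeR adjusted p = 1.09e-10). Among 9 tested regulators of mitochondrial biogenesis 5 were called higher and 3 lower, with *Ppargc1b*, a coactivator, at 2.37 (edgeR adjusted p = 2.79e-10), *Gabpa*, the DNA-binding subunit of GABP, at 0.63 and *Myc* at −1.37. The cytosolic ribosomal protein genes ran the other way on the TMM scale, with 72 of 79 called higher and a median of 0.25, a size below the shift that library totals bring. With upper-quartile scaling 3 of these 79 were called higher and 2 lower, and with library totals 0 and 76.

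The region before the start of transcription was read for the members because they changed in both directions. RefSeq (GRCm38.p6) lists a promoter for 69 of the 78, and none is listed for *Mrpl13*, *Mrpl15*, *Mrpl19*, *Mrpl38*, *Mrpl4*, *Mrpl54*, *Mrps28*, *Mrps34* and *Mrps35*. In the window from 250 bases before to 50 after the start, both strands were searched for the NRF1 motif GCATGCGC, the ETS motif CCGGAAG that GABP binds, the YY1 motif AAGATGGCG and the E-box CACGTG, none of which contains another. A gene was counted once, as holding a motif if any of its listed promoters did. The NRF1 motif was in 8 of the 69 members (11.6%) and in 3.05% of all 27025 genes with a listed promoter, and the ETS motif in 26 (37.7%) and in 9.93%. The YY1 motif was in 8 (11.6%) and in 1.64%, and the E-box in 5 (7.25%) and in 8.09%. Counted by promoter and not by gene, 2.71% of all 32851 promoters held the NRF1 motif, 8.86% the ETS motif, 1.40% the YY1 motif and 7.15% the E-box. All members passed the filter on low counts, whereas these shares include genes that did not, so they are not a like background. Among tested genes with a listed promoter 567 held the NRF1 motif and 8669 did not, and 1936 and 7300 for the ETS motif. For the YY1 motif it was 346 and 8890, and for the E-box 1105 and 8131. With zymosan in WT 2 of the 26 members with the ETS motif were called higher and 14 lower, and 5 and 18 of the 43 without it. Of all tested genes with a listed promoter, 28.7% of those with the ETS motif were called higher and 41.4% lower, and 33.2% and 36.1% of those without it. With the NRF1 motif 2 of 8 were called higher and 4 lower, and without it 5 and 28 of 61, and among all such genes the shares were 31.6% and 41.6% with it and 32.3% and 36.9% without.

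The 250 bases before the start are shown, from the start RefSeq gives, for the 2 largest rises and the 3 largest falls with zymosan in WT among members with a listed promoter, so that members that changed in opposite directions can be read side by side. Capitals mark matches to the motifs: in *Mrpl39* the NRF1 motif on both strands, which overlap, and in *Mrpl52* and *Mrps26* the ETS motif, while *Mrpl49* and *Mrpl44* hold none of the 4 in these bases. By the GENCODE positions given above, the whole *Mrpl39* stretch lies inside the gene, so by that start it is not upstream. The *Mrpl49* and *Mrps26* stretches reach into the gene in part. A match is a description of the letters only.
Mrpl39 (chr16:84735245-84735494, minus strand): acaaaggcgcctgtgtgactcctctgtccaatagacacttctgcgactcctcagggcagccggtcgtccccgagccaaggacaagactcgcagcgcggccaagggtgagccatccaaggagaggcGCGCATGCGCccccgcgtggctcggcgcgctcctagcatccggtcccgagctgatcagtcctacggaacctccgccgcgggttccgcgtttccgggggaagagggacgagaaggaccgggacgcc
Mrpl52 (chr14:54426659-54426908, plus strand): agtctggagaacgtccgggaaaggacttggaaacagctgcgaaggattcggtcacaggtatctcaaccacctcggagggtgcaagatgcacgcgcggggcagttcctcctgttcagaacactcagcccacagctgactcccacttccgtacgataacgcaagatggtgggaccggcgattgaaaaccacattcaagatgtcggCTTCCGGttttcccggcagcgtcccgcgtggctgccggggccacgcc
Mrpl49 (chr19:6057756-6058005, minus strand): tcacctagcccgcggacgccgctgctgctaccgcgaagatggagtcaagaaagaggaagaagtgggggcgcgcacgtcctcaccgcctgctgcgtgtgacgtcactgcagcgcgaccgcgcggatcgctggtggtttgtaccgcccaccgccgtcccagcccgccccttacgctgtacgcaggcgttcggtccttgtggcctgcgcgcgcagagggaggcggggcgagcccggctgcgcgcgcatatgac
Mrpl44 (chr1:79775768-79776017, plus strand): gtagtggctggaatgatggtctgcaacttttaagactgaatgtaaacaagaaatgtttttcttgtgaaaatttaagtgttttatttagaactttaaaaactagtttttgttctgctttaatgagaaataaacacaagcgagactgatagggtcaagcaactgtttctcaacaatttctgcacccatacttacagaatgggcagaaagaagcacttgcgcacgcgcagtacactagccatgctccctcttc
Mrps26 (chr2:130563507-130563756, plus strand): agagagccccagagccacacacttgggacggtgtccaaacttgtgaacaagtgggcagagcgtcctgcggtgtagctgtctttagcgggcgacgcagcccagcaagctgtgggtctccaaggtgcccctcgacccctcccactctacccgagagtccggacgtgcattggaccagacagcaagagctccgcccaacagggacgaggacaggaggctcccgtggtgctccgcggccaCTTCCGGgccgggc

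The members lie on 17 chromosomes, 11 of them on chromosome 11 and 8 on chromosome 17. The start of another protein-coding gene that runs the other way lies within 1000 bases of the start of 33 members, in 32 pairs since *Mrpl46* and *Mrps11* form 1 pair, and in 29 of these both genes were tested. Both genes were called with zymosan in WT in 14 pairs, in the same direction in 10 and in opposite directions in 4, on the TMM scale. Beside these, 32.4% of all tested genes were called higher and 36.8% lower, and no count over other pairs of this kind is given. Across the 29 pairs Spearman's rho between the log2 fold changes of the 2 genes was 0.05, given as a description since genes are not independent replicates. *Mrpl49* starts 59 bases from *Fau*, which encodes cytosolic ribosomal protein S30 fused to a ubiquitin-like domain, and the pair had log2 fold changes of −1.04 and 0.20 on the TMM scale. *Mrps27* starts 81 bases from *Ptcd2*, and this pair had log2 fold changes of −0.43 and −0.97. Transcript length and GC content followed the change with zymosan in WT weakly across the 78 members, with a Spearman's rho of −0.21 for length and 0.07 for GC, against −0.04 and −0.12 over all genes. With zymosan in *Mcu*-/- the rho for length was −0.10 over members and 0.04 over all genes. It was 0.24 and 0.12 between the genotypes after zymosan, and 0.21 and 0.12 for the difference of their zymosan responses.

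The same stimulus in *Mcu*-/- macrophages, where *Mcu* counts were lower but still present, asks whether the members respond in that genotype. They did, again with more falls than rises: *Mrpl39* rose and *Mrps26*, *Mrpl49*, *Mrps34* and *Mrpl41* fell, each by more than the spread between replicates. In all, 9 members were called higher and 34 lower, beside 34.3% and 39.4% of all tested genes. Without *Mcu*-/- untreated replicate 4, 13 were called higher and 36 lower, beside 39.2% and 42.4% of all genes. The median log2 fold change was −0.12 over the members and −0.06 over all genes (−0.14 and −0.05 without that library). The effect of zymosan and what the stimulated libraries may share with that untreated library cannot be told apart here. The libraries of one group lay wholly apart from those of the other for 38 members, 33 of them called, and for 61.7% of all tested genes. With relative log expression 14 were higher and 29 lower, and by DESeq2 also 14 and 29. With upper-quartile scaling 1 was higher and 54 lower (median −0.35), and with library totals 1 and 73 (median −0.65), where the median of all genes moved by −0.23 and −0.52. Of all tested genes 36.9% were called higher and 37.3% lower with relative log expression, 35.9% and 37.1% by DESeq2, 24.6% and 53.1% with the upper quartile and 16.04% and 68.3% with library totals.

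*Mrpl39* stood at 23.7, 23.4, 22.3 and 26.2 CPM in *Mcu*-/- untreated and 59.0, 61.6 and 57.6 CPM in *Mcu*-/- with zymosan. The stimulated libraries were far above the untreated ones, with a log2 fold change estimated at 1.31 (standard error 0.06, edgeR adjusted p = 3.93e-13), and 1.36 without replicate 4. *Mrpl52* stood at 32.5, 29.5, 31.6 and 25.8 CPM and 35.3, 38.4 and 41.0 CPM. Its groups did not overlap, with a log2 fold change estimated at 0.36 (standard error 0.08, edgeR adjusted p = 0.000372), but with upper-quartile scaling it was 0.13 (edgeR adjusted p = 0.18) and with library totals it turned to −0.17. Among proteins with a bacterial counterpart, *Mrpl35* (log2 fold change 0.34, edgeR adjusted p = 0.00218), *Mrpl21* (0.28, 0.00106), *Mrps10* (0.25, 0.00496) and *Mrpl32* (0.24, 0.00516), the last made mature by the m-AAA protease, were called higher on the TMM scale. With upper-quartile scaling these 4 were at 0.12, 0.05, 0.02 and 0.01 and not called, and with library totals they turned to −0.18, −0.24, −0.27 and −0.28.

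On the falling side *Mrps26* stood at 26.0, 29.3, 26.0 and 19.1 CPM untreated and 13.4, 13.1 and 13.1 CPM with zymosan. Replicate 4 of the untreated group was the lowest of its group but still above each stimulated library, with a log2 fold change estimated at −0.93 (standard error 0.10, edgeR adjusted p = 1.17e-07), and −1.04 without it. *Mrpl49* stood at 22.7, 24.4, 22.7 and 22.9 CPM and 12.7, 12.9 and 12.2 CPM. It showed the same clear separation as in WT, with a log2 fold change estimated at −0.88 (standard error 0.05, edgeR adjusted p = 3.32e-11). *Mrps34*, of the small subunit, had a log2 fold change of −0.82 with an edgeR adjusted p = 1.64e-06, and 63.4% of its exon bases are shared with *Mapk8ip3* on the opposite strand and 37.0% with *Nme3* on the same strand. *Mrpl41* and *Mrpl43* were at −0.81 and −0.71 (edgeR adjusted p = 3.80e-06 and 2.17e-08). *Mrpl33*, the counterpart of bacterial L33, stood at 30.9, 30.8, 33.0 and 15.8 CPM untreated and 15.1, 19.8 and 15.4 CPM with zymosan. Untreated replicate 4 lay inside the range of the stimulated group, far from the other 3, and the log2 fold change estimated at −0.72 (standard error 0.18, edgeR adjusted p = 0.00153) was −0.91 without it, while a fit of these 2 groups alone ended the call (edgeR adjusted p = 0.055).

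By role, 4 of the 30 large subunit proteins with a bacterial counterpart were called higher and 12 lower (median −0.10), and 4 and 11 of the 21 found only in mitochondria (median −0.22). In the small subunit 1 of 16 with a bacterial counterpart was called higher and 6 lower (median −0.10), and 5 of the 10 found only in mitochondria were called lower (median −0.25). Assembly genes were called lower in 18 of 26 and higher in 2 (median −0.42), translation factors lower in 10 and higher in 3 of 16, and aminoacyl-tRNA synthetases lower in 11 and higher in 1 of 20, beside 39.4% lower and 34.3% higher among all genes. With upper-quartile scaling 22 assembly genes, 14 translation factors and 15 synthetases were called lower, beside 53.1% of all genes, and with library totals 23, 15 and 19, beside 68.3%. *Ppargc1b* was at 2.50 and *Gabpa* at 0.78, while *Pprc1*, a coactivator of the same family, was at −0.21 (edgeR adjusted p = 0.000470), a call that ended in a fit of these 2 groups alone (edgeR adjusted p = 0.056).

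Whether the response to zymosan differs by genotype was tested as the difference of the responses, *Mcu*-/- minus WT. Without zymosan, *Mcu*-/- untreated replicate 4 differed from the WT untreated mean in the direction of 40 of the 42 calls between genotypes with zymosan. Genotype and what this library and the stimulated *Mcu*-/- libraries may share therefore cannot be told apart in this comparison. For most members the responses did not differ past the threshold, but a minority moved apart: *Mrpl1* fell in WT and was not called in *Mcu*-/-, whereas *Mrpl28* and *Mrpl45* fell in *Mcu*-/- and were not called in WT. The difference was called higher in 8 members and lower in 8, beside 15.2% and 20% of all tested genes, with a median of −0.01 over the members and over all genes. Without *Mcu*-/- untreated replicate 4 it was called higher in 14 and lower in 18, beside 31.0% and 29.3% of all genes, with medians of −0.02 and 0.01. The number called higher was also 4 without WT untreated replicate 1, 5 without WT untreated replicate 3, 4 without *Mcu*-/- untreated replicate 1 or 2, 3 without *Mcu*-/- zymosan library 4 and 5 without library 5. In these fits 11.97% to 13.4% of all genes were called higher. The number called lower was 5 without WT untreated replicate 2, WT zymosan replicate 5, *Mcu*-/- untreated replicate 2 or *Mcu*-/- zymosan library 3 or 4, and 4 without *Mcu*-/- untreated replicate 1, where 17.01% to 18.7% of all genes were called lower. With upper-quartile scaling 5 were called lower, beside 18.4% of all genes, and with a filter that keeps every gene with at least 1 count 5 were called higher, beside 9.29%.

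*Mrpl1* (ENSMUSG00000029486, chr5:96209493-96266727), the counterpart of bacterial L1 at the stalk where tRNA leaves, stood at 19.1, 17.7, 15.7 and 19.5 CPM in WT untreated and 13.0, 11.6, 11.7, 13.2 and 10.8 CPM in WT with zymosan. In *Mcu*-/- it stood at 17.3, 16.9, 21.3 and 21.9 CPM untreated and 20.9, 18.9 and 19.3 CPM with zymosan. The WT groups were apart and the *Mcu*-/- groups overlapped, with log2 fold changes of −0.57 and 0.03 and a difference of 0.60 (standard error 0.14, edgeR adjusted p = 0.00303), 0.67 without replicate 4. *Mrpl28* (ENSMUSG00000024181, chr17:26123500-26126613), the counterpart of bacterial L28, stood at 43.1, 40.5, 36.7 and 42.7 CPM in WT untreated and 38.7, 35.5, 37.1, 38.7 and 38.6 CPM in WT with zymosan. In *Mcu*-/- it stood at 45.0, 46.5, 41.7 and 33.3 CPM untreated and 24.1, 26.7 and 28.1 CPM with zymosan. Here the WT groups overlapped and the *Mcu*-/- groups did not, with log2 fold changes of −0.11, which was not called, and −0.66, and a difference of −0.55 (standard error 0.13, edgeR adjusted p = 0.00286), −0.64 without replicate 4. *Mrpl45* (ENSMUSG00000018882, chr11:97315716-97329920), whose product lies at the exit tunnel and ties the ribosome to the inner membrane, stood at 48.4, 47.9, 45.7 and 47.8 CPM in WT untreated and 51.9, 49.8, 52.3, 47.2 and 47.7 CPM in WT with zymosan. In *Mcu*-/- it stood at 47.8, 49.9, 48.1 and 40.9 CPM untreated and 36.7, 38.3 and 37.8 CPM with zymosan. Again the WT groups overlapped and the *Mcu*-/- groups did not, with log2 fold changes of 0.07, which was not called, and −0.31, and a difference of −0.38 (standard error 0.08, edgeR adjusted p = 0.00122), −0.44 without replicate 4.

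The difference for *Mrpl39* was 0.27 (standard error 0.08, edgeR adjusted p = 0.0155) on top of a rise in both genotypes. For *Mrps18b* it was −0.26 (standard error 0.07, edgeR adjusted p = 0.00928), with log2 fold changes of 0.22 in WT and −0.04 in *Mcu*-/- on the TMM scale. These 2 and *Mrpl1*, *Mrpl28* and *Mrpl45* were the 5 of 16 members called under every alternative tried. *Mrps22*, of the small subunit, stood at 15.3, 11.6, 14.3 and 12.5 CPM and 12.4, 11.4, 11.7, 10.4 and 11.4 CPM in WT and at 13.7, 14.6, 15.5 and 18.4 CPM and 16.2, 18.4 and 17.4 CPM in *Mcu*-/-, without and with zymosan. Its difference of 0.39 (edgeR adjusted p = 0.0397) was no longer called without WT untreated replicate 1 or 3, WT zymosan replicate 2, 3, 4 or 5, *Mcu*-/- untreated replicate 1, 2 or 3, or *Mcu*-/- zymosan library 4 or 5 (0.32 to 0.48 over all libraries left out), nor in a fit of these groups alone (edgeR adjusted p = 0.0556) or with the filter of at least 1 count (edgeR adjusted p = 0.0612). *Mrpl44* had a difference of 0.44 (edgeR adjusted p = 0.0256), not called without WT untreated replicate 1, *Mcu*-/- untreated replicate 1 or *Mcu*-/- zymosan library 4 (0.36 to 0.52 over all libraries left out). *Mrps31* had one of 0.44 (edgeR adjusted p = 0.0284), not called without WT untreated replicate 3, *Mcu*-/- untreated replicate 1 or 2 or *Mcu*-/- zymosan library 4 (0.36 to 0.52), nor in a fit of these groups alone (edgeR adjusted p = 0.0517). The other 8 members also lost their call without 1 or more libraries. Of the 12 tested mRNAs that the ribosome translates, 7 had a lower response in *Mcu*-/-, with a median difference of −0.74 and of −0.95 without replicate 4.

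**Figure D2:**
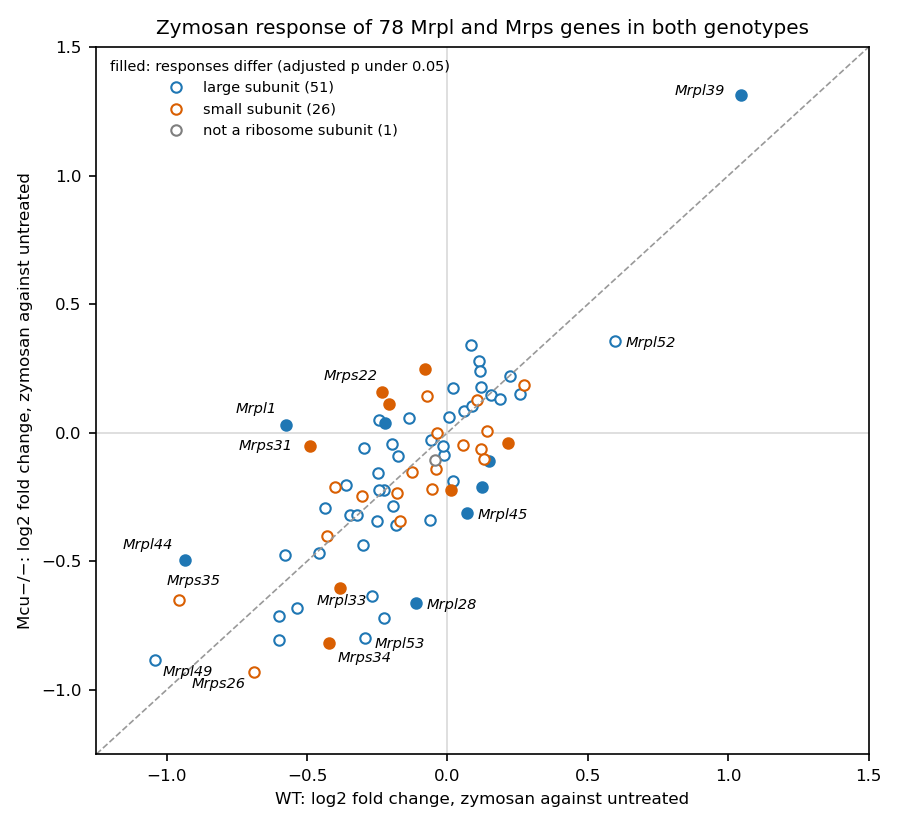
The log2 fold change with zymosan in WT (horizontal axis) and in *Mcu*-/- macrophages (vertical axis) for each member, coloured by subunit, where a filled point marks a difference of responses with an adjusted p under 0.05 and the dashed line marks equal responses. *Mrpl39* lies far to the upper right at 1.05 and 1.31, *Mrpl1* above the line at −0.57 and 0.03 and *Mrpl28* below it at −0.11 and −0.66, and the direction of small changes turns under other scalings.

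The next comparison sets *Mcu*-/- beside WT macrophages after zymosan, and it shares its libraries with the comparisons of zymosan in each genotype and, for WT, of BAPTA-AM. Genotype and what the stimulated *Mcu*-/- libraries may share with untreated replicate 4 cannot be told apart here either. About as many members were called higher as lower, which was also so over all tested genes. *Mrpl1* and *Mrps22* had the largest rises in *Mcu*-/- and *Mrpl33* and *Mrpl28* the largest falls among called members at 10 CPM or more. Of the 78, 20 were called higher and 22 lower, beside 31.8% and 30.3% of all tested genes, and the median log2 fold change was −0.00 over the members and 0.02 over all genes. Without *Mcu*-/- untreated replicate 4, 22 were called higher and 23 lower, beside 36.4% and 33.7% of all genes. The groups did not overlap for 35 members, 33 of them called, and for 64.0% of all tested genes, and 28 of the 42 called members were called under every alternative tried.

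After zymosan *Mrpl1* had 19.7 ± 1.05 CPM (SD, n = 3) in *Mcu*-/- and 12.1 ± 1.04 CPM (SD, n = 5) in WT, with a log2 fold change estimated at 0.71 (standard error 0.10, edgeR adjusted p = 1.22e-05). Every *Mcu*-/- library lay above every WT library. *Mrps22* had 17.3 ± 1.12 CPM (SD, n = 3) and 11.4 ± 0.704 CPM (SD, n = 5), with a log2 fold change estimated at 0.60 (standard error 0.10, edgeR adjusted p = 7.48e-05). Its stimulated groups were apart as well. *Mrpl44* had a log2 fold change of 0.46 with an edgeR adjusted p = 0.00125, *Mrpl39* of 0.43 (edgeR adjusted p = 5.12e-06), *Mrps10*, the counterpart of bacterial S10, of 0.42 (edgeR adjusted p = 5.70e-05), and *Mrpl35*, the counterpart of bacterial L35, of 0.38 (edgeR adjusted p = 0.000947). *Mrpl33* stood at 30.6, 26.3, 25.9, 29.4 and 33.5 CPM in WT with zymosan and 15.1, 19.8 and 15.4 CPM in *Mcu*-/- with zymosan. All 3 *Mcu*-/- libraries were below the lowest WT library, with a log2 fold change estimated at −0.80 (standard error 0.18, edgeR adjusted p = 0.000764). *Mrpl28* and *Mrpl45* were at −0.52 and −0.40 (edgeR adjusted p = 0.000111 and 1.04e-05), and *Mrpl57* at −0.45 (edgeR adjusted p = 0.00136). *Mrpl52* was lower in *Mcu*-/- at −0.43 (edgeR adjusted p = 7.57e-05) and *Mrps26* at −0.39 (edgeR adjusted p = 0.00195). In *Mcu*-/- untreated replicate 4, *Mrpl33* at 15.8 CPM, *Mrpl28* at 33.3 CPM and *Mrps26* at 19.1 CPM were the lowest of their untreated group.

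By role, 8 of the 30 large subunit proteins with a bacterial counterpart were called higher and 7 lower (median 0.07), and 6 and 8 of the 21 found only in mitochondria (median −0.02). In the small subunit it was 2 and 3 of 16 (median −0.03) and 4 and 4 of 10 (median −0.05). Among the genes that serve the ribosome 9 of 20 aminoacyl-tRNA synthetases were called higher and 2 lower (median 0.27) and 5 of 16 translation factors higher and 1 lower (median 0.13), while assembly genes were split at 4 and 4 of 26. Beside the 31.8% of all genes called higher and 30.3% lower, the share called higher was 31.3% for translation factors and 15.4% for assembly genes. *Mtif2* was at 0.42 (edgeR adjusted p = 0.000719) and *Gadd45gip1*, a large subunit protein, at −0.64 (edgeR adjusted p = 0.000283). *Pprc1* was at −0.96 (edgeR adjusted p = 1.32e-11) and *Slirp*, which stabilises mitochondrial mRNAs, at 0.31 (edgeR adjusted p = 0.000542). What the ribosome translates was lower: 9 of 12 tested mitochondrially encoded mRNAs were called lower (median −0.95), with a summed level of 6526 ± 767 CPM (SD, n = 3) in *Mcu*-/- with zymosan and 14085 ± 1057 CPM (SD, n = 5) in WT with zymosan. That sum was 11591 ± 1163 CPM (SD, n = 4) in WT untreated and 9737 ± 3333 CPM (SD, n = 4) in *Mcu*-/- untreated, where replicate 4 was at 4818 CPM and the other 3 between 10645 and 12099.8 CPM. Nuclear genes of the respiratory chain were called lower in 39 and higher in 9 of 79 (median −0.14), and cytosolic ribosomal protein genes lower in 51 and higher in 5 of 79 (median −0.15).

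**Figure D3:**
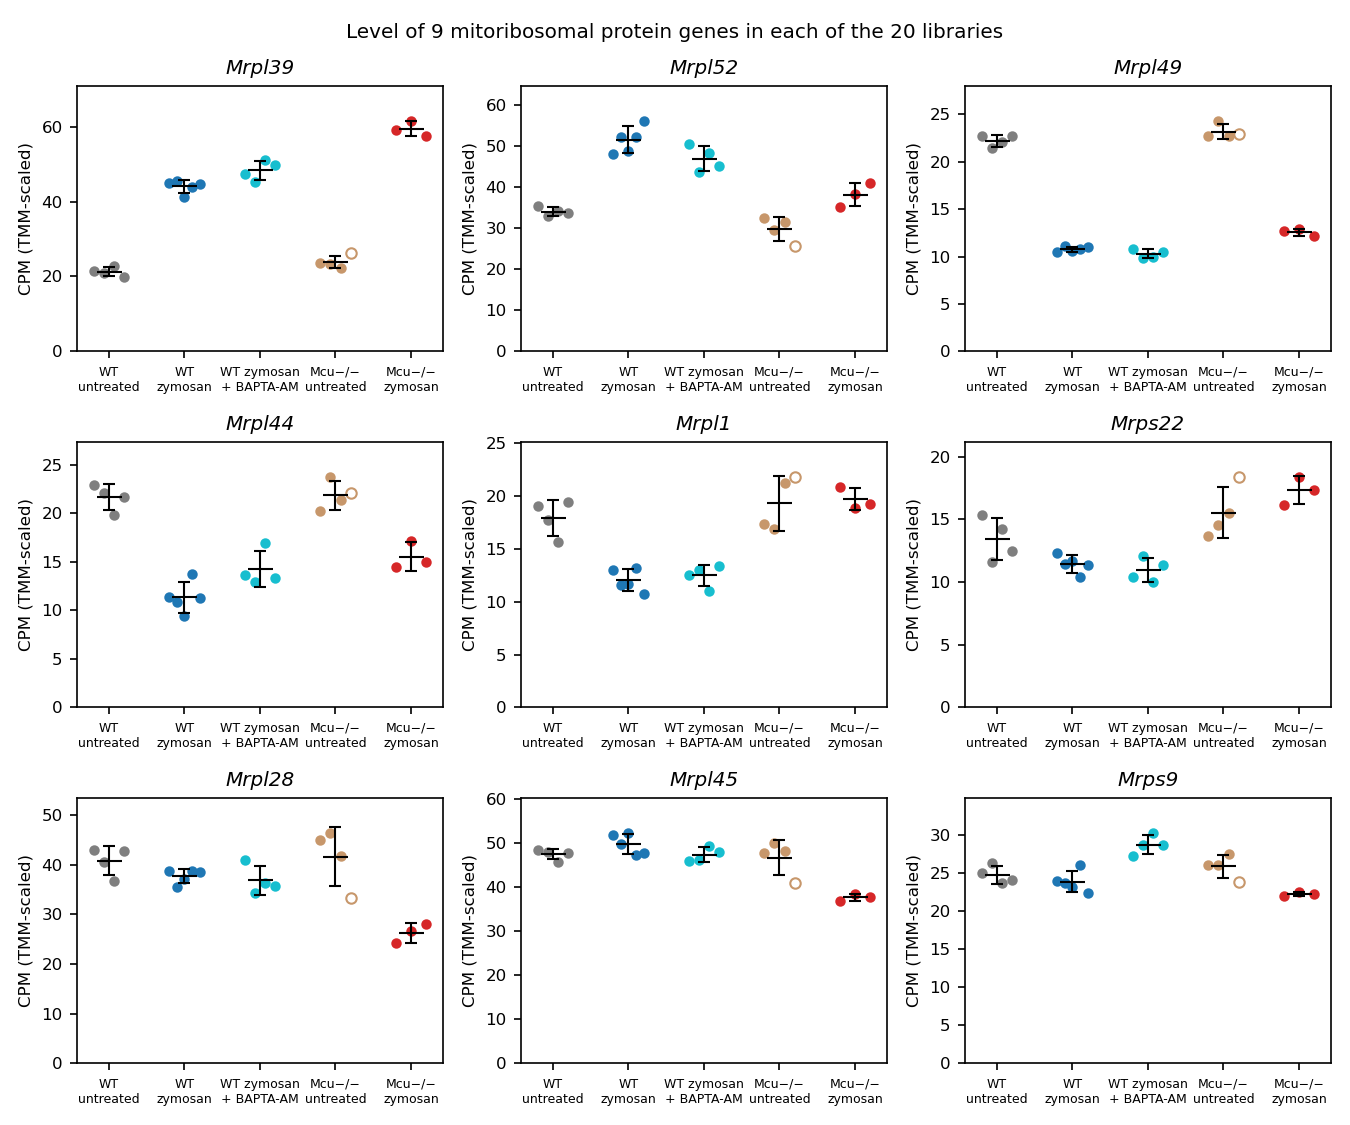
Levels of 9 members in CPM on the TMM scale (vertical axis) in each library of the 5 groups (horizontal axis), with dots for libraries, a line for the mean and a bar for the SD, and an open circle for *Mcu*-/- untreated replicate 4. After zymosan the *Mcu*-/- libraries of *Mrpl1* lie between 18.9 and 20.9 CPM and those of WT between 10.8 and 13.2 CPM, and for *Mrps9* the BAPTA-AM loaded libraries, at 27.3 to 30.4 CPM, lie above the other WT libraries.

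Without stimulation no member passed the test between *Mcu*-/- and WT macrophages. *Mrpl52* stood at 35.4, 32.9, 34.2 and 33.8 CPM in WT untreated and 32.5, 29.5, 31.6 and 25.8 CPM in *Mcu*-/- untreated. The groups lay next to each other without overlap, as they also did for *Mrpl49*, *Mrpl9* and *Mrpl55*, and none of these 4 members was called, where 7.09% of all tested genes had no overlap. For *Mrpl39*, whose untreated groups overlapped, the log2 fold change came to 0.16 (standard error 0.06, edgeR adjusted p = 0.225) and for *Mrpl52* −0.19 (standard error 0.07, edgeR adjusted p = 0.242). With edgeR 0 members were called in either direction, beside 0.128% of all tested genes called higher and 0.222% lower. An unadjusted p under 0.05 was seen in 8 members. DESeq2 called 0 members, beside 0.487% of all genes higher and 0.470% lower. The log2 fold changes ran from −0.30 to 0.21. Without replicate 4, again 0 were called by edgeR, beside 1.53% and 1.83% of all genes, with 5 at an unadjusted p under 0.05. The median log2 fold change was −0.01 over the members and 0.02 over all genes.

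The last comparison asks what binding Ca2+ inside the cell does to the members in WT macrophages given zymosan. Few members were called, and none of them lower. *Mrps9* (ENSMUSG00000060679, chr1:42851233-42905683), the counterpart of bacterial S9, stood at 24.04, 23.7, 23.2, 26.1 and 22.4 CPM with zymosan alone and 27.3, 28.8, 30.4 and 28.7 CPM in BAPTA-AM loaded macrophages. Every loaded library lay above every other stimulated WT library, with a log2 fold change estimated at 0.27 (standard error 0.05, edgeR adjusted p = 0.00215). *Mrpl55* (ENSMUSG00000036860, chr11:59202486-59206134), the counterpart of bacterial L31, stood at 11.4, 11.1, 12.2, 11.5 and 10.6 CPM with zymosan alone and 13.3, 14.03, 13.3 and 14.8 CPM in BAPTA-AM loaded macrophages. It too was higher in each loaded library, with a log2 fold change estimated at 0.29 (standard error 0.07, edgeR adjusted p = 0.00743). By edgeR 4 of the 78 members were called higher and 0 lower, beside 6.43% and 6.33% of all tested genes. An unadjusted p under 0.05 was seen in 13 members. DESeq2 called 4 members higher and 0 lower, beside 5.66% and 8.48% of all genes. The groups did not overlap for 6 members, 2 of them called, and for 24.3% of all tested genes. The median log2 fold change was 0.03 over the members and 0.00 over all genes.

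The other 2 were *Mrpl44* and *Mrps12*. *Mrpl44* stood at 11.3, 10.9, 9.44, 13.7 and 11.3 CPM with zymosan alone and 13.7, 12.9, 16.97 and 13.3 CPM in BAPTA-AM loaded macrophages. The groups overlapped, and the log2 fold change estimated at 0.33 (standard error 0.10, edgeR adjusted p = 0.0369) was no longer called without WT zymosan replicate 1, 2, 3 or 5 or BAPTA-AM replicate 1, 3 or 4 (0.23 to 0.41 over all libraries left out), nor with a filter of at least 1 count (edgeR adjusted p = 0.051). *Mrps12* stood at 11.0, 11.4, 12.8, 10.7 and 9.92 CPM with zymosan alone and 13.4, 15.5, 13.98 and 12.03 CPM in BAPTA-AM loaded macrophages. These groups overlapped as well, and the log2 fold change estimated at 0.30 (standard error 0.09, edgeR adjusted p = 0.0390) was no longer called without WT zymosan replicate 1, 2, 4 or 5 or BAPTA-AM replicate 1, 2 or 3 (0.23 to 0.36), nor with the filter of at least 1 count (edgeR adjusted p = 0.059) or scaling by relative log expression (edgeR adjusted p = 0.051). The count of 4 became 2 without WT zymosan replicate 1 or 2 or BAPTA-AM replicate 1 or 3, where 4.90% to 5.26% of all genes were called higher. It was 14 with library totals, 7 with upper-quartile scaling, 10 in a fit of these groups alone, 9 with the replicate number as a block and 2 with the filter of at least 1 count. The share of all genes called higher in those fits was 13.4%, 7.70%, 15.9%, 12.9% and 3.51% in the same order. Leaving out *Mcu*-/- untreated replicate 4, which is in neither group but enters the shared spread, gave 10 higher and 1 lower, beside 15.3% and 16.5% of all genes. The 6 added as higher were *Mrpl2*, *Mrpl20*, *Mrpl38*, *Mrpl39*, *Mrpl57* and *Mrps30*, with log2 fold changes of 0.22, 0.19, 0.31, 0.13, 0.16 and 0.22, and the one lower was *Mrpl52* at −0.13. Of the lists beside them, 3 of 26 assembly genes, 1 of 20 aminoacyl-tRNA synthetases and 2 of 9 regulators were called higher.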

How the data were processed

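The deposited values are raw counts per gene, which the authors made with HTSeq from reads trimmed by cutadapt and aligned by STAR to the mm10 genome. The strand setting, the annotation and the versions are not given in the sources used here. The 20 libraries were fitted together in edgeR 4.0.16 (R 4.3.3, limma 3.58.1), with TMM factors, the edgeR filter on low counts, 1 coefficient per group and quasi-likelihood F-tests, and p-values measure the spread between replicates labelled "biol rep". The *Mcu*-/- zymosan libraries are labelled 1 to 3 but their columns are numbered 3, 4 and 5, so they are named by column. Members named are the 6 largest rises and falls among those called in a comparison with at least 10 CPM in the higher group, members and partners with a listed role, and the 3 highest and 3 lowest by RPKM in WT untreated. The members and lists were chosen with earlier results of these data known. Alternatives were other scalings (relative log expression, upper quartile, library totals), other filters (at least 1 count in any library, at least 10 in every library), DESeq2 1.42.0, a fit of the compared groups alone, the replicate number as a block, and leaving out each library. Figures were drawn with Python 3.11.15, pandas 2.3.3 and matplotlib 3.10.9. The fits were also run on simulated data, but the outcome is not given here and no result rests on it. Gene positions are from GENCODE M21 (GRCm38).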

Additional observations from a re-analysis of the deposited data

Results flagged for a closer look

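In groups of 4 or 5 libraries, 4 of 124 sets of replicate values, taken over 31 genes and sums, had 1 library far from the rest (3.23%), and chance gives this in about 1 in 20 groups. The gap to the nearest library, as a share of the whole range, was 0.867 for *Mrpl33* in *Mcu*-/- untreated replicate 4 (15.8 CPM against 30.8 to 33.0 CPM in the others) and 0.880 for *Mrpl55* in the same library (15.1 CPM against 13.7 to 13.8 CPM). It was 0.903 for *Mrpl49* in *Mcu*-/- untreated replicate 2 (24.4 CPM against 22.7 to 22.9 CPM) and 0.862 for *Mrpl43* in BAPTA-AM replicate 4 (16.99 CPM against 18.7 to 18.9 CPM).

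The response to zymosan differed between the genotypes by the test of the difference itself in 16 members, given as log2 values for *Mcu*-/- minus WT. The difference was 0.60 for *Mrpl1*, 0.44 for *Mrpl44*, 0.44 for *Mrps31*, 0.39 for *Mrps22*, 0.33 for *Mrps10*, 0.32 for *Mrps25*, 0.27 for *Mrpl39* and 0.26 for *Mrpl36*. It was −0.55 for *Mrpl28*, −0.40 for *Mrps34*, −0.38 for *Mrpl45*, −0.33 for *Mrpl48*, −0.26 for *Mrpl23*, −0.26 for *Mrps18b*, −0.24 for *Mrps2* and −0.22 for *Mrps23*. Of the 8 not described above by library, *Mrps10* and *Mrps2* lost the call without *Mcu*-/- zymosan library 4, over a range of 0.27 to 0.37 and of −0.27 to −0.19. *Mrpl48* lost it without WT untreated replicate 2, *Mcu*-/- untreated replicate 1 or 3 or *Mcu*-/- zymosan library 3 (−0.40 to −0.30). *Mrps25* lost it without WT untreated replicate 1 or 3, WT zymosan replicate 3, *Mcu*-/- untreated replicate 2 or 3 or *Mcu*-/- zymosan library 3 or 5 (0.26 to 0.37). *Mrpl36* lost it without WT untreated replicate 1 or 4, WT zymosan replicate 1 or 2, *Mcu*-/- untreated replicate 1 or 2 or any 1 *Mcu*-/- zymosan library (0.23 to 0.29). *Mrps23* lost it without WT untreated replicate 2 or 3, WT zymosan replicate 1 or 5, *Mcu*-/- untreated replicate 1 or 2 or *Mcu*-/- zymosan library 3 or 4 (−0.29 to −0.16). *Mrps34* lost it without WT untreated replicate 1 or 2, WT zymosan replicate 2, 3 or 5, *Mcu*-/- untreated replicate 1 or 2 or *Mcu*-/- zymosan library 3 or 4 (−0.52 to −0.33). *Mrpl23* lost it without WT untreated replicate 1, 3 or 4, any 1 of WT zymosan replicates 2 to 5, *Mcu*-/- untreated replicate 1, 2 or 3 or *Mcu*-/- zymosan library 4 or 5 (−0.33 to −0.20).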

How the results depend on the processing

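With relative log expression factors in place of TMM, 14 members were called higher with zymosan in WT and 14 in *Mcu*-/-, where the median was −0.0801. The DESeq2 Wald test gave the same counts of 14 and 14 and a median of −0.0815.

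With upper-quartile factors, zymosan in WT gave 2 higher and 61 lower (median −0.39) and in *Mcu*-/- 1 higher and 54 lower (median −0.35), BAPTA-AM gave 7 higher, and the difference of responses was lower in 5. Log2 fold changes that turned in WT were *Mrpl24* −0.0546, *Slirp* −0.10, *Mrpl13* −0.0844, *Mrps18b* −0.0240, *Mrpl37* −0.0162, *Mrps15* −0.10, *Mrpl23* −0.0919 and *Nrf1* −0.0203. Those that turned in *Mcu*-/- were *Mrpl13* −0.0812, *Mrps18a* −0.0443, *Lrpprc* −0.0939, *Gfm1* −0.0834, *Mrpl37* −0.00772 and *Dap3* −0.0337. The summed level of the members was 2187 CPM in WT untreated, 1737 CPM in WT with zymosan, 1793 CPM with BAPTA-AM, 2167 CPM in *Mcu*-/- untreated and 1689 CPM in *Mcu*-/- with zymosan.

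With library totals alone, zymosan in WT gave 1 higher and 74 lower (median −0.64) and in *Mcu*-/- 1 higher and 73 lower (median −0.65), the median between genotypes with zymosan was −0.0557, and BAPTA-AM gave 14 higher (median 0.0926). Those that turned in WT were *Mrpl24* −0.31, *Slirp* −0.35, *Mrpl13* −0.34, *Mrps18b* −0.28, *Mrpl37* −0.27, *Mrps15* −0.35, *Mrpl54* −0.23, *Mrpl23* −0.34 and *Nrf1* −0.27. Those that turned in *Mcu*-/- were *Mrpl52* −0.17, *Mrpl32* −0.28, *Slirp* −0.0199, *Mrpl13* −0.38, *Mrps18a* −0.34, *Lrpprc* −0.39, *Mrpl21* −0.24, *Gfm1* −0.38, *Mrpl37* −0.30, *Mrps10* −0.27, *Mrpl35* −0.18 and *Dap3* −0.33. The summed levels were 2424 CPM in WT untreated, 1617 CPM in WT with zymosan, 1731 CPM with BAPTA-AM, 2396 CPM in *Mcu*-/- untreated and 1521 CPM in *Mcu*-/- with zymosan.

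The filter of at least 1 count gave 2 higher with BAPTA-AM and a higher difference in 5. Fitting only the groups compared gave 10 higher with BAPTA-AM. With the replicate number as a block, 15 members were called higher with zymosan in WT and 9 with BAPTA-AM. Over the libraries left out one at a time, BAPTA-AM gave 2 to 10 higher and 0 to 1 lower, and the difference was higher in 3 to 14 and lower in 4 to 18. For all these changes the cause was not tested. Leaving out a library turned no direction, and no setting turned one between the genotypes, with BAPTA-AM or in the difference. Under every alternative 30 of 45 members remained called with zymosan in WT, 26 of 43 in *Mcu*-/-, 28 of 42 between genotypes with zymosan, 2 of 4 with BAPTA-AM and 5 of 16 for the difference. The replicate numbers paired no libraries by their values, with correlations of −0.0877 to 0.0728 and the own number best in 2 of 12 cases. No block was fitted for the 3 comparisons that hold *Mcu*-/- zymosan libraries, whose numbers are not settled. Depth limits *Mrpl53*, at 2 to 18 counts per library, which the filter of at least 10 counts in every library leaves out.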
